A study of Homo sapiens with 4 samples.

Results

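The SLC25 genes code for the mitochondrial carrier family, and 48 of the 51103 genes in the deposited tables carried a name made of SLC25A and a number. All 48 were taken as members. Pseudogenes, antisense genes and relatives named otherwise (the uncoupling proteins and MTCH1 and MTCH2) were not. The cells were SCC-15, labelled as an oral squamous cell carcinoma line. They were infected with lentivirus to overexpress REEP6 (2 libraries, from an overexpression line) or stood as the negative control called NC in the labels (2 libraries), and the labels do not say what virus, if any, the NC cells received. Polyadenylated RNA was sequenced. Nothing says that the 2 libraries of a group came from separate cultures, and the p-values below therefore speak only to how far these libraries varied, which may be technical.

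Carriers of this family sit mostly in the inner mitochondrial membrane, fold from repeated pairs of membrane helices and most of them swap one small molecule for another by opening in turn to each side. They are made in the cytosol and imported without a cleaved presequence in most cases, through the TOM complex and the TIM22 complex. ADP, ATP, phosphate, citrate, malate, amino acids, cofactors and iron reach or leave the matrix through them. REEP6 is a membrane protein of the endoplasmic reticulum.

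The promoters of 4 members that passed the test are shown because 2 of these genes rose most and the 2 others were the members that fell. Each is the stretch of 250 bases before the RefSeq start on GRCh38.p14, written 5′ to 3′ on the strand of the gene, and capitals mark matches on either strand to 3 motifs: that of NRF1 and CCGGAAG of GABPA, factors of nuclear genes for mitochondrial proteins, and CACGTG, the E-box. SLC25A23 lies on the minus strand (chr19:6459793-6460042) and SLC25A4 on the plus strand (chr4:185143016-185143265). SLC25A36 (chr3:140941586-140941835) and SLC25A46 (chr5:110738757-110739006) lie on the plus strand. All 4 RefSeq starts lie inside the genes as GENCODE release 29 draws them. SLC25A23 holds none of the 3 motifs in this window.
SLC25A23: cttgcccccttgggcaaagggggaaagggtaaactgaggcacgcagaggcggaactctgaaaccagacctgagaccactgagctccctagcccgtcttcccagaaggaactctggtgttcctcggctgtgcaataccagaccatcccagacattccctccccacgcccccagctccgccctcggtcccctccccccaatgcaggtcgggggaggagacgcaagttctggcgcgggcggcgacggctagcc
SLC25A4: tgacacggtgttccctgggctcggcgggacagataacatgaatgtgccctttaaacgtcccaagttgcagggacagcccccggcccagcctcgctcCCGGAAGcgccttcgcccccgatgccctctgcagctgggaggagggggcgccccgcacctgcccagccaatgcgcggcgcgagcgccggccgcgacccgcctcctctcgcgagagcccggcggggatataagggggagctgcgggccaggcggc
SLC25A36: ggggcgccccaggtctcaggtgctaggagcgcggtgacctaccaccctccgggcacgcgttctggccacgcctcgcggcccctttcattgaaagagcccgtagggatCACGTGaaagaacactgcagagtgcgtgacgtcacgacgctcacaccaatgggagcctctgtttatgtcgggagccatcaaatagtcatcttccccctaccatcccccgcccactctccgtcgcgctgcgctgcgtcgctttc
SLC25A46: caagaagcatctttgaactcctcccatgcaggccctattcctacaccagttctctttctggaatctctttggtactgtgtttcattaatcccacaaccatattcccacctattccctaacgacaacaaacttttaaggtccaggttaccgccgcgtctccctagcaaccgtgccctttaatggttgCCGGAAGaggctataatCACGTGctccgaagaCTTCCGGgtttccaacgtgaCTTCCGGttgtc

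The E-box stood in both genes that fell, SLC25A36 and SLC25A46, and in 0 of the 6 that rose. SLC25A46 also held 3 matches to the GABPA motif, SLC25A4 held 1, and among the 6 that rose SLC25A11 alone held the NRF1 motif. RefSeq windows were at hand for 40 members. The E-box was in 17.5% of these 40 and in 6.49% of 27305 promoters of the same length. The GABPA motif was in 20% against 8.82%, and the NRF1 motif in 10% against 5.53%. The 27305 promoters were neither limited to tested genes nor matched in base content. These matches are a description of letters only.

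The libraries were similar in depth, with between 12856256 and 15208629 counts on genes, and SLC25 genes took 0.354% and 0.363% of the counts with REEP6 and 0.347% and 0.351% in NC. REEP6 itself had 20.0 and 20.9 FPKM (a level per gene length and library depth, in which genes can be compared) in the overexpression libraries and 11.1 and 12.6 FPKM in NC, a 1.76-fold difference (edgeR adjusted p 0.00119). Of 8 squamous epithelial markers (KRT5, KRT6A, KRT14, KRT17, TP63, SFN, DSG3 and CDH1) 0 reached the filter, their summed level was between 0.0902 and 0.417 FPKM in a library, and KRT6A and DSG3 had no count, so the squamous label was not borne out by these markers. The 8 fibroblast markers were LUM, DCN, COL1A1, COL1A2, COL3A1, POSTN, PDGFRB and PDGFRA. They summed to 18.3 and 18.1 FPKM with REEP6 and to 36.6 and 34.5 FPKM in NC. Of these 8, 4 reached the filter and all 4 were called lower, beside 14.2% of all tested genes. Of 4 leukocyte and 4 endothelial markers 0 reached the filter, with sums of at most 0.594 FPKM in a library and CD68 and KDR at 0. Mitochondrially encoded genes took 5.81% and 6.02% of counts with REEP6 and 3.90% and 5.44% in NC. The part of these differences in the results below was not tested. In bulk RNA, fewer cells of a kind and less RNA per cell cannot be told apart.

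With REEP6, 6 carriers rose and 2 fell out of 38 that could be tested, and each of these 8 changes was smaller than 1.5-fold. The 6 that rose were SLC25A23 (1.45-fold), SLC25A4 (1.41-fold), SLC25A15 (1.39-fold), SLC25A22 (1.30-fold), SLC25A11 (1.22-fold) and SLC25A1 (1.22-fold). SLC25A36 and SLC25A46 each fell 1.28-fold. Genes were tested where at least 2 of the 4 libraries had at least 1 FPKM, with edgeR's quasi-likelihood test across 13077 genes, and called at a Benjamini-Hochberg adjusted p under 0.05. Thus 15.8% of the tested carriers were called higher, against 10.9% of all tested genes, and 5.26% lower, against 14.2%. Calls in either direction came to 21.1% of the carriers and 25.0% of all genes, so the share of carriers that changed was near the background. With libraries scaled to equal FPKM sums in place of TMM, which moves the median over all tested genes to -0.14 (log2 fold change), 1 carrier was higher and 5 were lower. That scaling also left 19.0% of all calls in the higher direction, against 43.4%.

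The median log2 fold change of the 38 tested carriers was 0.04, beside -0.01 over all tested genes. The lower and upper quartiles were -0.12 and 0.28 for the carriers and -0.29 and 0.24 for all genes. The 8 called carriers had a median absolute log2 fold change of 0.37, beside 0.51 for all called genes. FPKM ranges of the groups were apart for 21 tested carriers, 12 higher and 9 lower with REEP6, and over all tested genes for 28.2% in the higher and 35.3% in the lower direction. Of the 30 carriers not called, 5 had an unadjusted p under 0.05.

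**Figure D1:**
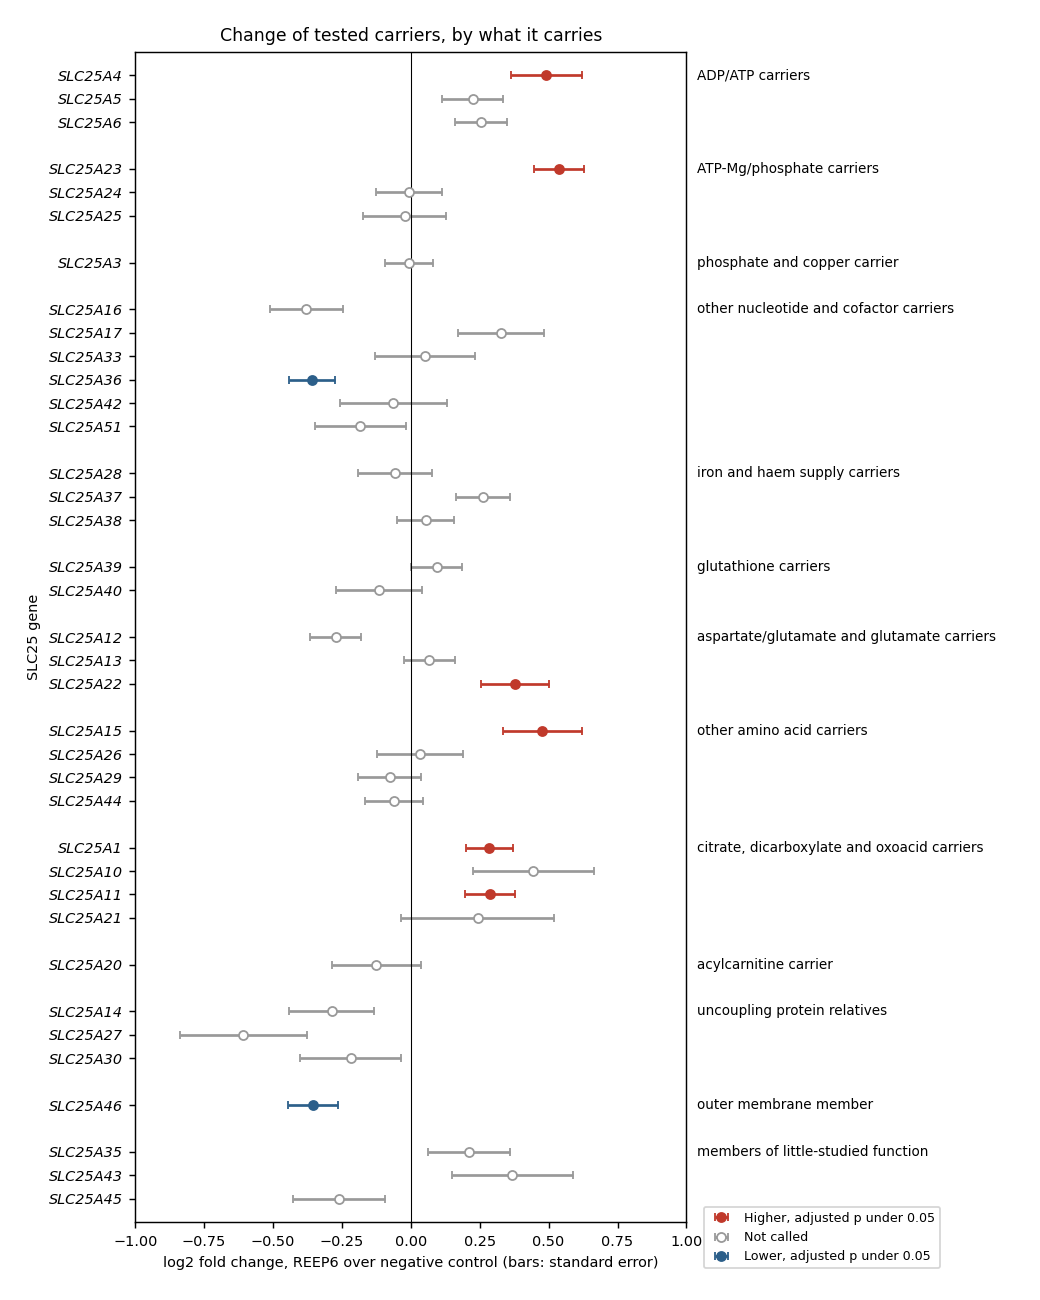
Log2 fold change of REEP6 over negative control for 37 of the 38 tested SLC25 genes, grouped by what they carry, with standard errors as bars (edgeR, 2 libraries per group). Filled red points are the 6 genes called higher, filled blue points the 2 called lower, and open points 29 that were not called; with equal FPKM sums 1 was called higher and 5 lower.

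The family spanned a wide range of levels. Over the 4 libraries 3 members averaged more than 100 FPKM, 13 between 10 and 100, 22 between 1 and 10, and 10 less than 1. The ADP/ATP carrier SLC25A5 led with 254 to 342 FPKM, followed by the ADP/ATP carrier SLC25A6 with 153 to 199 FPKM, the phosphate carrier SLC25A3 with 102 to 113 FPKM and the citrate carrier SLC25A1 with 55.4 to 69.4 FPKM. The ranges of these 4 did not overlap, so their order held in every library. SLC25A5, SLC25A6 and SLC25A3 together made up 61.8% and 58.9% of the family's summed FPKM with REEP6 and 61.1% and 56.5% in NC. SLC25A39 came next, also with no overlap with the gene above it. SLC25A11 and SLC25A13 each overlapped the gene above, SLC25A36 did not, and from SLC25A37 down to SLC25A26 each gene's range overlapped that of the gene above it.

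**Figure D2:**
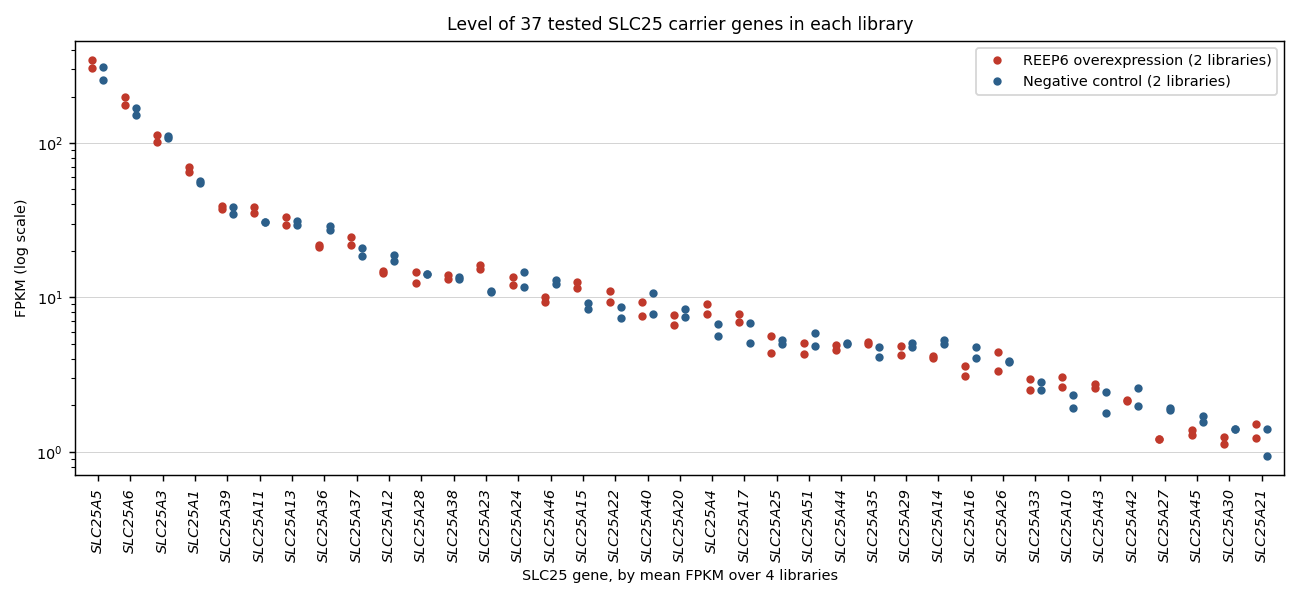
Level in FPKM (log axis) of 37 of the 38 tested SLC25 genes in each library, red for REEP6 and blue for negative control, ordered by the mean over 4 libraries. SLC25A5, SLC25A6, SLC25A3 and SLC25A1 stand above the rest in all 4 libraries, and the smallest tested levels are near 1 FPKM.

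ADP/ATP carriers bring ADP into the matrix and send ATP out. SLC25A4 (ENSG00000151729, chromosome 4, 185143241 to 185150382, GRCh38), the form known from heart and skeletal muscle, had 9.05 and 7.85 FPKM with REEP6 and 6.68 and 5.59 FPKM in NC. Both REEP6 libraries lay above both NC libraries. It averaged 8.45 ± 0.844 FPKM with REEP6 and 6.14 ± 0.769 FPKM in NC (SD, n = 2 each), a log2 fold change of 0.49 ± 0.128 (SE) with an edgeR adjusted p of 0.0214. The call ended without REEP6 replicate 1 (adjusted p 0.117) and without NC replicate 2 (0.0541). With equal FPKM sums SLC25A4 was not called (edgeR adjusted p 0.0783), nor was it with limma or with no abundance trend. The muscle genes CKM, ACTA1 and MYH7 and the brown fat gene UCP1 summed to at most 0.307 FPKM in a library, and MYH7 and UCP1 were at 0.

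The 2 abundant forms did not pass. SLC25A5, the form known from dividing cells, had 342 and 304 FPKM with REEP6 and 310 and 254 FPKM in NC, and the groups overlapped (log2 fold change 0.22 ± 0.110 SE, adjusted p 0.163). SLC25A6, a widely expressed form whose gene lies in the pseudoautosomal region of the sex chromosomes, had 199 and 178 FPKM with REEP6 and 169 and 153 FPKM in NC (log2 fold change 0.25 ± 0.0949 SE, adjusted p 0.0778). Its groups did not overlap. Without NC replicate 1 both were called (adjusted p 0.0266 for SLC25A5 and 0.0458 for SLC25A6). Among the ADP/ATP carriers, the share of summed FPKM held by SLC25A5 was 62.2% and 62.1% with REEP6 and 63.8% and 61.7% in NC, and that of SLC25A4 was 1.64% and 1.60% with REEP6 and 1.38% and 1.36% in NC. SLC25A31, the form known from testis and sperm, had no count in any library. The coding sequences of SLC25A4, SLC25A5 and SLC25A6 had 77.3% to 78.8% of aligned bases in common, and SLC25A5 had 13.4% of its coding windows of 50 bases, exact match, in transcripts of 6 other genes, chiefly SLC25A5-AS1, so its level is uncertain to that extent.

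ATP-Mg/phosphate carriers change the size of the adenine nucleotide pool in the matrix and are gated by calcium. SLC25A23 (ENSG00000125648, chromosome 19, 6436079 to 6465203) had 15.2 and 16.1 FPKM with REEP6 and 10.9 and 11.1 FPKM in NC. The gap between the groups was larger than the spread within them. Its mean was 15.6 ± 0.646 FPKM with REEP6 and 11.0 ± 0.141 FPKM in NC (SD, n = 2 each), the log2 fold change 0.54 ± 0.0907 (SE) and the adjusted p 0.00327. It was the 1 carrier called under each of the 16 other settings tried, with log2 fold changes from 0.41 to 0.58. Its tested paralogues were not called. SLC25A24 had 12.1 and 13.6 FPKM with REEP6 and 11.6 and 14.6 FPKM in NC, and SLC25A25 had 5.59 and 4.36 FPKM with REEP6 and 5.29 and 5.01 FPKM in NC, with overlapping groups and log2 fold changes of -0.01 ± 0.120 and -0.02 ± 0.149 (SE). The difference in change between SLC25A23 and these paralogues was not tested. On the opposite strand AL359258.2 overlaps 13.7% of the exon bases of SLC25A24, and SLC25A25-AS1 overlaps 13.5% of those of SLC25A25. SLC25A25-AS1 had 297 and 316 counts with REEP6 and 396 and 460 counts in NC. Whether counting used strand is not given, so the levels of both paralogues are uncertain to that extent. SLC25A41, a member of this group without the calcium-binding part, had 0 to 3 counts.

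The phosphate carrier SLC25A3, which supplies phosphate for ATP synthesis and also carries copper, had 102 and 113 FPKM with REEP6 and 109 and 111 FPKM in NC. The NC values lay between the REEP6 values, and the log2 fold change was -0.01 ± 0.0868 (SE, adjusted p 0.961).

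Among carriers of tricarboxylates, dicarboxylates and oxoacids, 2 of 4 rose and 0 fell, where 10.9% of all tested genes rose and 14.2% fell. Neither call held with equal FPKM sums or with library totals only. SLC25A1 (ENSG00000100075, chromosome 22, 19175575 to 19178830) exchanges matrix citrate for cytosolic malate and so feeds acetyl-CoA to lipid synthesis. It had 64.8 and 69.4 FPKM with REEP6 and 55.4 and 56.9 FPKM in NC, which did not overlap (log2 fold change 0.28 ± 0.0852 SE, adjusted p 0.0368). The call ended without REEP6 replicate 1 (adjusted p 0.0950), without REEP6 replicate 2 (0.244) and without NC replicate 1 (0.0888). SLC25A11 (ENSG00000108528, chromosome 17, 4937130 to 4940251), the oxoglutarate/malate carrier of the malate-aspartate shuttle, had 38.6 and 35.1 FPKM with REEP6 and 30.9 and 30.6 FPKM in NC. Its groups were apart too (log2 fold change 0.29 ± 0.0916 SE, adjusted p 0.0457), but the call ended when any library was left out (adjusted p from 0.0633 to 0.337). On the opposite strand RNF167 overlaps 9.14% of its exon bases, and whether counting used strand is not given in the sources used here. SLC25A10, the dicarboxylate carrier, had 3.06 and 2.64 FPKM with REEP6 and 2.34 and 1.93 FPKM in NC on 77 to 106 counts (adjusted p 0.167). The overlapping gene AC139530.2 shares 87.5% of its coding windows and had no count, so the level of SLC25A10 is uncertain. SLC25A21, the oxoadipate carrier, had 1.22 and 1.52 FPKM with REEP6 and 0.945 and 1.40 FPKM in NC (adjusted p 0.562). Exons of 2 other genes overlap 28.8% of its exon bases, chiefly SLC25A21-AS1 on the opposite strand (15.8%). The level of SLC25A21 is uncertain to that extent.

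Of the aspartate/glutamate and glutamate carriers 1 of 3 tested rose, and of the other amino acid carriers 1 of 4, beside 10.9% of all genes. Neither was called with equal FPKM sums. SLC25A15 (ENSG00000102743, chromosome 13, 40789412 to 40810111), the ornithine carrier that serves the urea cycle and polyamine supply, had 12.5 and 11.5 FPKM with REEP6 and 8.38 and 9.20 FPKM in NC. All REEP6 values were above all NC values (log2 fold change 0.48 ± 0.144 SE, adjusted p 0.0378). The call ended without REEP6 replicate 1 (adjusted p 0.176), without REEP6 replicate 2 (0.0537) and without NC replicate 1 (0.110). SLC25A22 (ENSG00000177542, chromosome 11, 790475 to 798333), which carries glutamate with protons, had 9.28 and 11.1 FPKM with REEP6 and 7.30 and 8.62 FPKM in NC. Its groups were apart by less than the spread within either of them (log2 fold change 0.38 ± 0.124 SE, adjusted p 0.0497). The call ended without REEP6 replicate 2 (0.284) and without NC replicate 1 (0.165). PANO1, on the opposite strand, overlaps 10.9% of its exon bases. The other glutamate carrier, SLC25A18, was below the filter with 9 to 22 counts.

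The aspartate/glutamate carriers, which drive the malate-aspartate shuttle, did not pass. SLC25A12, the form known from brain and muscle, had 14.5 and 14.8 FPKM with REEP6 and 17.2 and 18.8 FPKM in NC, with groups apart and an adjusted p of 0.0549 (log2 fold change -0.27 ± 0.0916 SE). It was called lower without NC replicate 1 (adjusted p 0.0315). SLC25A12 was also called lower by edgeR with library totals only (adjusted p 0.0402), equal FPKM sums (0.0106), a minimum of 5 FPKM (0.0378) and a replicate block. DESeq2 did not call it (0.138). SLC25A13, called citrin and known from liver, was the more abundant of the pair. It had 29.3 and 33.0 FPKM with REEP6 and 29.2 and 31.4 FPKM in NC, and its groups overlapped (adjusted p 0.641). The carriers of S-adenosylmethionine (SLC25A26), basic amino acids (SLC25A29) and branched-chain amino acids (SLC25A44) had log2 fold changes between -0.08 and 0.03 and none was called. LRIG1, on the opposite strand, overlaps 15.5% of the exon bases of SLC25A26, so its level is uncertain to that extent. SLC25A2, a second ornithine carrier, had 1 to 5 counts.

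Of carriers for other nucleotides and cofactors, 1 of 7 tested members fell and 0 rose, close to the 14.2% of all genes that fell. SLC25A36 (ENSG00000114120, chromosome 3, 140941830 to 140980961), a pyrimidine nucleotide carrier, had 21.0 and 21.8 FPKM with REEP6 and 27.1 and 28.8 FPKM in NC. The groups were well apart: the means were 21.4 ± 0.508 FPKM with REEP6 and 28.0 ± 1.16 FPKM in NC (SD, n = 2 each), with a log2 fold change of -0.36 ± 0.0829 (SE) and an adjusted p of 0.0131. The call ended without REEP6 replicate 1 (adjusted p 0.0783) and without NC replicate 2 (0.0598). Its paralogue SLC25A33, also a pyrimidine nucleotide carrier, had 2.51 and 2.95 FPKM with REEP6 and 2.50 and 2.85 FPKM in NC and was not called (adjusted p 0.866). Another gene, AC135977.1, holds 70.7% of the coding windows of SLC25A33, so its level is uncertain.

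SLC25A16, which is linked to coenzyme A supply, had 3.09 and 3.61 FPKM with REEP6 and 4.06 and 4.80 FPKM in NC (log2 fold change -0.38 ± 0.134 SE, adjusted p 0.0646). With equal FPKM sums edgeR called it lower (adjusted p 0.0184). The groups did not overlap, and the gene was called lower without REEP6 replicate 2 (adjusted p 0.0421) and without NC replicate 1 (0.0224). SLC25A17, a carrier of the peroxisomal membrane, had 6.87 and 7.76 FPKM with REEP6 and 5.09 and 6.77 FPKM in NC (adjusted p 0.153) and was called higher without NC replicate 2 (0.0190). Not called were the coenzyme A carrier SLC25A42 and the NAD carrier SLC25A51, with log2 fold changes of -0.06 and -0.18. SLC25A51 shares 45.9% of its coding windows with other genes, chiefly the near-copy SLC25A52, which had 1 count in 1 library.

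The folate carrier SLC25A32 on chromosome 8 (103398635 to 103415189) was listed with 5 and 12 counts in the REEP6 libraries and 1 and 17 counts in the NC libraries. No level can be read from these. In GENCODE release 29, 80.8% of its exon bases overlap exons of other genes, and 69.7% lie in AC012213.5, a gene on the same strand that had no count in any library. How reads in such places were counted is not given in the sources used here.

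Iron and haem supply gave no call. SLC25A37, mitoferrin-1, which brings iron to the matrix and is best known from red cell precursors, had 21.9 and 24.5 FPKM with REEP6 and 18.4 and 21.0 FPKM in NC. The groups were apart, with a log2 fold change of 0.26 ± 0.0978 (SE, adjusted p 0.0769), and the gene was called higher without NC replicate 2 (0.0194). Mitoferrin-2, SLC25A28, had 12.4 and 14.6 FPKM with REEP6 and 14.3 and 14.3 FPKM in NC, and SLC25A38, the glycine carrier of haem synthesis, had 13.2 and 14.0 FPKM with REEP6 and 13.6 and 13.1 FPKM in NC. For both, the groups overlapped. The glutathione carriers also overlapped between groups: SLC25A39 had 39.0 and 37.2 FPKM with REEP6 and 34.5 and 38.2 FPKM in NC, and SLC25A40 had 7.52 and 9.31 FPKM with REEP6 and 7.82 and 10.7 FPKM in NC.

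Of the relatives of the uncoupling proteins 0 of 3 tested were called. SLC25A27 had 1.22 and 1.21 FPKM with REEP6 and 1.92 and 1.86 FPKM in NC, on 53 and 53 counts with REEP6 and 81 and 93 counts in NC. Its log2 fold change of -0.61 ± 0.230 (SE, adjusted p 0.0816) had the largest size of all tested carriers and came with the second largest error. SLC25A14 had 4.04 and 4.20 FPKM with REEP6 and 5.27 and 4.98 FPKM in NC (adjusted p 0.201), and SLC25A30 had 1.12 and 1.24 FPKM with REEP6 and 1.40 and 1.40 FPKM in NC (adjusted p 0.414). In all 3 genes both REEP6 values lay below both NC values, which held for 35.3% of all tested genes. With equal FPKM sums SLC25A27 was called lower (adjusted p 0.0417), and also with no abundance trend and with a replicate block. The acylcarnitine carrier SLC25A20, which brings fatty acids into the matrix for oxidation, had 6.59 and 7.66 FPKM with REEP6 and 8.40 and 7.46 FPKM in NC, and the groups overlapped (adjusted p 0.612).

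SLC25A46 (ENSG00000164209, chromosome 5, 110738136 to 110765161) sits in the outer membrane, where it takes part in mitochondrial fusion, fission and lipid supply, and variants of it are known in optic atrophy. It had 9.29 and 10.0 FPKM with REEP6 and 12.3 and 12.9 FPKM in NC. The gap between the groups exceeded the spread within each: the means were 9.65 ± 0.513 FPKM with REEP6 and 12.6 ± 0.420 FPKM in NC (SD, n = 2 each), with a log2 fold change of -0.36 ± 0.0893 (SE, adjusted p 0.0186). The call ended without REEP6 replicate 1 (adjusted p 0.137) and without NC replicate 2 (0.0688).

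**Figure D3:**
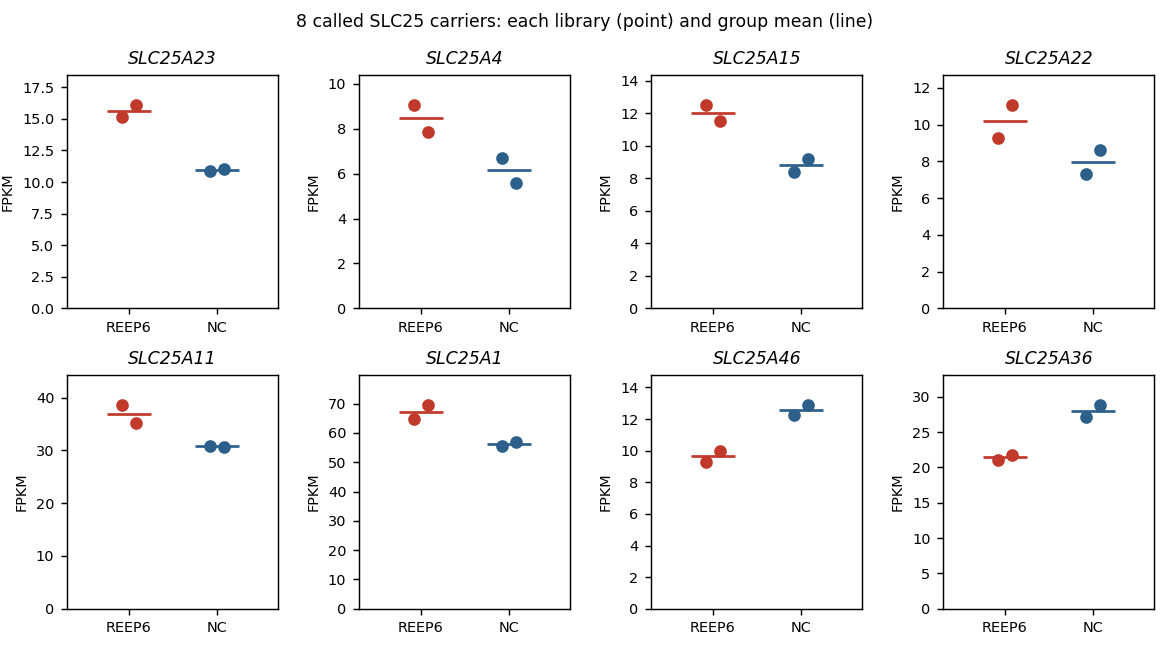
FPKM of the 8 called SLC25 genes in each library (points) and the group means (lines), REEP6 in red on the left and negative control (NC) in blue on the right of each panel, every axis from 0. In all 8 panels the points of the groups do not overlap; the 6 genes that rose come first and SLC25A46 and SLC25A36 last.

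Of members of little-studied function 0 of 3 tested were called. SLC25A35 had 4.96 and 5.17 FPKM with REEP6 and 4.11 and 4.79 FPKM in NC, but 33.2% of its exon bases overlap RANGRF on the opposite strand, which had at most 1 count. SLC25A43 had 2.76 and 2.58 FPKM with REEP6 and 1.77 and 2.43 FPKM in NC, and SLC25A45 had 1.29 and 1.38 FPKM with REEP6 and 1.71 and 1.55 FPKM in NC. The groups did not overlap in any of the 3 (as for 28.2% of all genes in the higher and 35.3% in the lower direction), and adjusted p ran from 0.248 to 0.326. Below the filter, SLC25A34 had 12 to 21 counts and SLC25A53 10 to 19, SLC25A48 had at most 3, and the liver gene SLC25A47 had none. In all, 10 members were not tested, and 1 tested member, SLC25A21, reached 1 FPKM in both libraries of the REEP6 group only.

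The sign of the 8 called carriers stayed the same under each of the 16 other settings, but most calls were close to the threshold. Leaving out 1 library at a time kept the call of SLC25A23 alone, with adjusted p from 0.00198 to 0.00727. SLC25A36 and SLC25A46 were not called lower without REEP6 replicate 1 or without NC replicate 2. Some of these fits called carriers outside the 8: SLC25A5, SLC25A6, SLC25A17 and SLC25A37 higher, and SLC25A12 and SLC25A16 lower. The median log2 fold change of the tested carriers was 0.08 without REEP6 replicate 1 and -0.03 without REEP6 replicate 2. It was 0.003 without NC replicate 1 and 0.13 without NC replicate 2, and the medians over all tested genes lay between -0.01 and 0.01. DESeq2 on all libraries called 3 carriers higher and 2 lower.

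**Figure D4:**
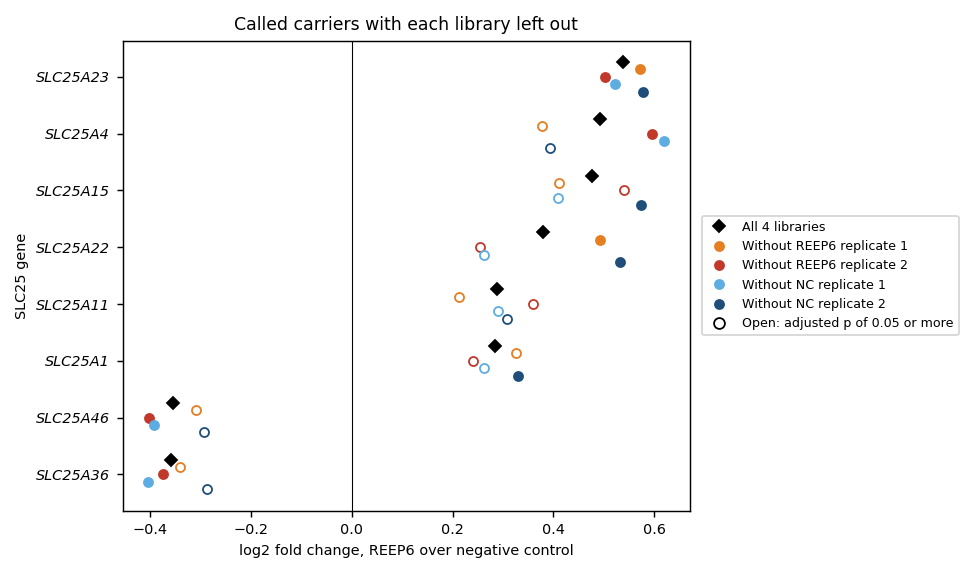
Log2 fold change (REEP6 over negative control) of the 8 called SLC25 genes with all 4 libraries (black diamonds) and with each library left out (circles); open symbols have an adjusted p of 0.05 or more. All symbols of a gene stay on its side of 0, and SLC25A23 is the 1 gene with every symbol filled.

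The partners of the carriers were read from the same fit, over which the median log2 fold change was -0.01, with 10.9% of all genes called higher and 14.2% lower. The lists of partners below were chosen with earlier results of these data known. Their counts beside the shares of all genes are therefore a description and not a test of any list. Where a list below had 0 calls in a direction, DESeq2 had 0 there too. At an unadjusted p under 0.05 edgeR there had 1 enzyme of the citrate list lower and 1 pyruvate carrier or sideroflexin gene higher. Carriers reach the inner membrane through TOM and TIM22 proteins, of which 2 of 13 tested rose and 0 fell (median log2 fold change 0.22), beside 10.9% higher over all genes. TOMM22 alone, 1 of 13, was higher with equal FPKM sums. TOMM40, the pore of the outer membrane, had 48.6 and 43.7 FPKM with REEP6 and 37.4 and 34.0 FPKM in NC, and TOMM22, a receptor beside it, had 40.2 and 35.8 FPKM with REEP6 and 29.2 and 26.7 FPKM in NC. Both had groups apart (adjusted p 0.0148 for TOMM40 and 0.00935 for TOMM22), and both calls ended without REEP6 replicate 1 (0.112 for TOMM40 and 0.0591 for TOMM22), where 0 of the list passed and 2 had an unadjusted p under 0.05. Without NC replicate 1, 5 members of the list were higher, and without REEP6 replicate 2, 4 were.

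Enzymes on either side of the citrate carrier had 3 of 6 higher and 0 lower (median log2 fold change 0.36), beside 10.9% and 14.2% of all genes. Scaled to equal FPKM sums, 2 were higher and 1 lower. IDH2, the mitochondrial NADP-dependent isocitrate dehydrogenase, had 19.0 and 20.0 FPKM with REEP6 and 12.3 and 10.4 FPKM in NC, a 1.76-fold rise (adjusted p 0.00133). Citrate synthase, CS, had 63.6 and 62.9 FPKM with REEP6 and 46.1 and 50.4 FPKM in NC (1.34-fold, adjusted p 0.00791). Both calls held under all 16 other settings. ATP citrate lyase, ACLY, which splits the exported citrate, rose 1.27-fold (adjusted p 0.0312), but not without REEP6 replicate 1 (0.164) or NC replicate 2 (0.0993).

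In the list of one-carbon and folate enzymes, which use the folate that SLC25A32 brings in, 3 of 7 tested rose and 0 fell (median log2 fold change 0.27), beside 10.9% higher over all genes. Only SHMT2, 1 of 7, was higher with equal FPKM sums. SHMT2, the mitochondrial serine hydroxymethyltransferase, had 57.6 and 54.0 FPKM with REEP6 and 42.4 and 43.0 FPKM in NC (1.33-fold, adjusted p 0.00767, and 0.0555 without REEP6 replicate 1). MTHFD2 rose 1.35-fold (adjusted p 0.0128, and 0.0564 without REEP6 replicate 2) and MTHFD1L 1.34-fold (0.0163, and 0.138 without REEP6 replicate 2). All 3 are mitochondrial enzymes of the pathway. Without REEP6 replicate 2, 1 of the list was higher.

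The shuttle enzymes went both ways, with 1 of 6 higher and 2 lower (median log2 fold change 0.03), beside 10.9% higher and 14.2% lower over all genes. With equal FPKM sums 0 were higher, also at an unadjusted p under 0.05, and 2 lower, and DESeq2 had 1 higher and 1 lower. GPD1L, a relative of the cytosolic glycerol-3-phosphate dehydrogenase, had 4.52 and 4.51 FPKM with REEP6 and 9.22 and 8.94 FPKM in NC. It fell 1.97-fold (adjusted p 0.000649), a call that held under all 16 other settings. GPD2, the mitochondrial glycerol-3-phosphate dehydrogenase, fell 1.20-fold (adjusted p 0.0478), and its call ended when any library was left out (0.0776 to 0.294). MDH2, the mitochondrial malate dehydrogenase, rose 1.22-fold (adjusted p 0.0368), which remained past the threshold only without NC replicate 2 (0.0186) when 1 library was left out.

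Among regulators of mitochondrial biogenesis 2 of 10 fell and 0 rose (median log2 fold change -0.04), near the 14.2% of all genes that fell. With equal FPKM sums 2 were lower. DESeq2 called 1 lower, PPARGC1A, and did not call GABPA (adjusted p 0.109). PPARGC1A, the coactivator PGC-1alpha, had 1.30 and 1.57 FPKM with REEP6 and 3.34 and 3.96 FPKM in NC. Its groups were far apart relative to their spread, with a 2.50-fold fall and an adjusted p of 0.000624. GABPA, an ETS factor of nuclear genes for mitochondrial proteins, fell 1.25-fold (adjusted p 0.0426), and the call ended without REEP6 replicate 1 (0.183), without REEP6 replicate 2 (0.0971) and without NC replicate 2 (0.237).

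In the calcium uniporter and ion exchange list 2 of 9 tested rose and 1 fell (median log2 fold change 0.10), beside 10.9% higher and 14.2% lower over all genes. With equal FPKM sums edgeR called 0 higher and 1 lower, with 1 higher at an unadjusted p under 0.05, and DESeq2 called 1 higher. MCUR1, a regulator of the uniporter, rose 1.33-fold (adjusted p 0.0143, and 0.0932 without REEP6 replicate 2). MCUB, a subunit that dampens the pore, rose 1.27-fold (0.0376), and its call held only without NC replicate 2 (0.0312) when 1 library was left out, with 0.121 to 0.147 otherwise. MICU2, a gatekeeper, fell 1.30-fold (0.0153), but not without REEP6 replicate 1 (0.0576), REEP6 replicate 2 (0.0771) or NC replicate 2 (0.0582). Without REEP6 replicate 2, 0 of the list passed by edgeR and 4 had an unadjusted p under 0.05.

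Of the carnitine shuttle list 2 were tested and CRAT, carnitine acetyltransferase, rose 1.25-fold (adjusted p 0.0422), a call that among the fits without 1 library held only without NC replicate 1 (0.0392; the others 0.113 to 0.181). Of the haem and iron-sulphur list 1 of 13 rose, beside 10.9% of all genes, the porphyrin enzyme UROD, by 1.22-fold (0.0482), and likewise it held only without NC replicate 1 (0.0335; the others 0.0866 to 0.274). By edgeR 0 were called among 3 tested family members of other names, 7 pyruvate carrier and sideroflexin genes and 4 outer membrane channel genes, and DESeq2 called 0 of them too. At an unadjusted p under 0.05 there were 0, 1 and 0 in these lists in edgeR, and without NC replicate 2 1 pyruvate carrier or sideroflexin gene was called higher. With equal FPKM sums neither CRAT nor UROD was called (adjusted p 0.232 and 0.292).

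**Figure D5:**
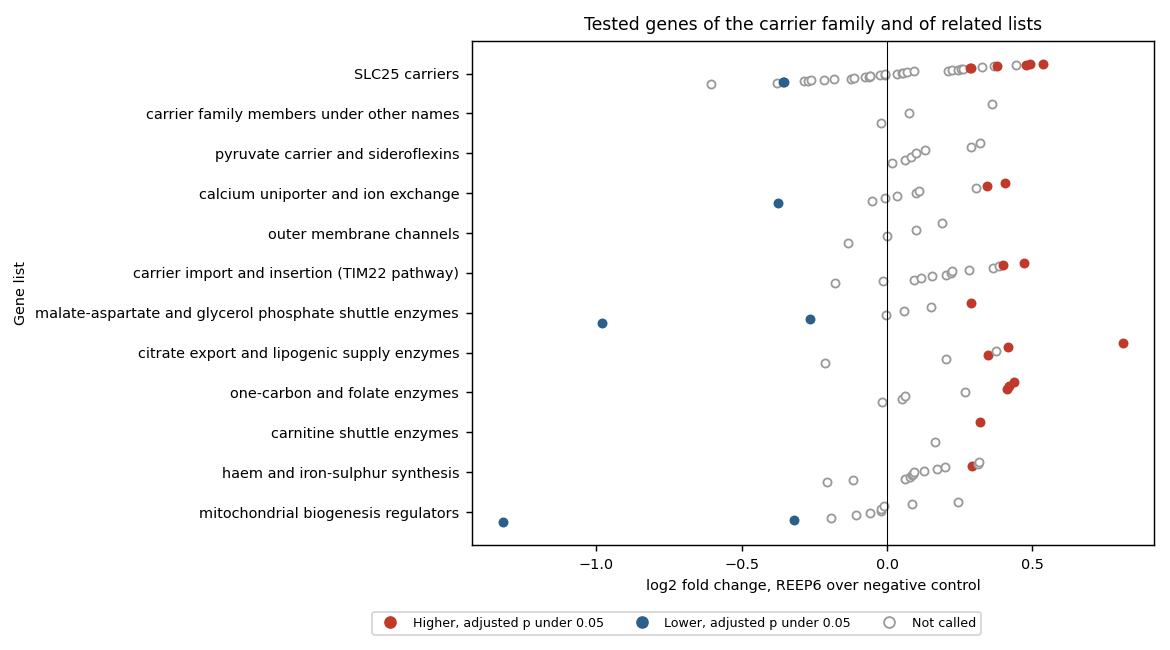
Log2 fold change (REEP6 over negative control) of 37 of the 38 tested genes in the SLC25 family and of the tested genes in 11 lists of related mitochondrial genes; filled red is called higher, filled blue called lower, open not called. The carriers lie between -0.61 and 0.54, while PPARGC1A and GPD1L lie furthest to the left and IDH2 furthest to the right.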

How the data were processed

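Per the labels, polyadenylated RNA of SCC-15 cells was sequenced, and the deposited counts are whole numbers per gene, not normalized. The deposited FPKM values were made by the authors from those counts; gene lengths implied by counts and FPKM were the same in all libraries for 100% of 29161 genes within a relative tolerance of 0.0001. The submitters' processing notes name HISAT2, HTSeq 0.13.5 and GRCh38 without roles. Annotation and strand setting: not given in the sources used here, but all 51103 gene IDs matched GENCODE release 29. Totals were 13236417 and 13302967 counts with REEP6 and 12856256 and 15208629 in NC. Replicates differed by more than sampling noise (chi-square per degree of freedom 5.68 with REEP6 and 9.58 in NC), so none was counted as a duplicate.

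Counts of genes with at least 1 FPKM in at least 2 libraries were fitted with edgeR 4.0.16 (R 4.3.3; TMM, quasi-likelihood test, Benjamini-Hochberg adjustment over 13077 genes, 2 residual degrees of freedom). DESeq2 1.42.0 and limma 3.58.1 on log2(FPKM + 1) or log2(FPKM + 0.1), other scalings and filters, a replicate block and leaving out each library were alternatives. No exact permutation test was run, since 2 libraries against 2 allow no two-sided p smaller than 0.333. Every carrier could be named; of each related list, called genes only, at most 4 with the smallest p. The members and lists were chosen with earlier results of these data known. Promoters came from RefSeq; shared coding windows of 50 bases were counted as exact matches among GENCODE transcripts. The values of 1 carrier that was tested and not called are not reported here; it is in the counts.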

Additional observations from a re-analysis of the deposited data

How the results depend on the processing

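Of the 8 called carriers none changed sign under the 16 other settings, and 13 of the 30 carriers not called did under at least 1. The count of carriers called higher, 6 of 38, was 3 with library totals only, 3 with a minimum of 5 FPKM, 3 with DESeq2, 2 with limma on log2(FPKM + 1), 2 with limma on log2(FPKM + 0.1), 2 with no abundance trend, 1 with equal FPKM sums and 1 at an adjusted p of 0.01. The count called lower, 2, was 5 with equal FPKM sums, 1 with limma on log2(FPKM + 0.1) and 1 with no abundance trend. The 1 with no abundance trend was SLC25A27, and neither SLC25A36 nor SLC25A46 was called there. At an adjusted p of 0.01 the count was 0, where edgeR had 5 at an unadjusted p under 0.05 and DESeq2 called 2 at 0.05. With 1 library left out, 2 to 6 carriers were higher and 0 to 4 lower, and 2212 to 3119 genes were called in all. Over all genes 3275 calls became 1906 and 1830 with limma (pseudocounts 1 and 0.1) and 1392 at an adjusted p of 0.01. The cause of these differences was not tested.

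With a replicate block 10 carriers were higher, 5 lower, and 6022 genes called. The libraries share only a number: deviations from the group means correlated at 0.271 across genes for same-numbered libraries, and no label ties the numbers to a shared culture or day. With 2 libraries a group, small changes of low genes were hardly detectable.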
